A study of Homo sapiens with 3 samples.

Results

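BRG1, the SMARCA4-encoded motor subunit of SWI/SNF, was mapped by chromatin immunoprecipitation and sequencing (ChIP-seq) in 12Z, an established human line of endometriotic epithelial cells. Described here are the shared BRG1 peaks on the arms of chromosomes 5, 15 and 20. They number 803 of the 6343 peaks in the series-wide overlap list, in which each peak is backed by a peak of both BRG1 libraries. Members were chosen by position: on chromosome 5 with a midpoint outside 45 to 51 Mb, on chromosome 15 above position 20500000, and on chromosome 20 outside 25 to 32 Mb. This gave 92 peaks on 5p, 345 on 5q, 237 on 15q, 40 on 20p and 89 on 20q. The same rule left out 593 shared peaks near the centromeres of these chromosomes and on the short arm of chromosome 15. Another 2944 shared peaks lay on the other 34 autosomal arms, again outside windows around the centromeres.

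The study holds 2 BRG1 libraries (replicates 1 and 2) and 1 input library, all from wild-type 12Z cells with no treatment named. Chromatin was fixed with 1% formaldehyde and cut with micrococcal nuclease. Nothing in the labels says that the replicates came from separate cultures, so their spread may be technical. No peak list of the input was used here. The lists give no read counts, which leaves the libraries' depth unknown. The lists measure binding and not expression, so the identity of the cells could not be checked against markers.

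The chromosomes had been picked for their number of shared peaks, so density is given as a description with no test. By arm, the label "peak-rich" held for 15q, 20q and 5q, at ranks 1, 3 and 4 of 39 autosomal arms. It held less for 5p, at rank 12, and for 20p, at rank 16. Arms outside the choice were as dense, namely 6p (2.79 shared peaks per Mb), 17q (2.64) and 12p (2.55).

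SWI/SNF complexes use the energy of ATP to slide and evict nucleosomes, and BRG1 is one of a pair of alternative motor subunits. In many epithelial cells the complex sits at enhancers and promoters, where it keeps DNA open for sequence-specific factors. Among these factors are AP-1, which joins stress and growth signals to transcription, and the TEAD proteins, through which the Hippo pathway acts.

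The promoter sequences below are those of genes picked by the naming rule whose promoter window was overlapped by a shared peak, and they show what DNA lies under a peak at a start. The window runs from 250 bases before to 50 bases after a transcription start, as RefSeq gives it on GRCh38.p14, read 5′ to 3′ on the gene's strand. Capitals mark matches, on either strand, to the AP-1 pattern TGANTCA or the TEAD pattern GGAATG. N stands for any base, so TGANTCA takes in more than TGAGTCA and TGACTCA. These patterns can share letters, but each window printed here held at most 1 match.
DAB2: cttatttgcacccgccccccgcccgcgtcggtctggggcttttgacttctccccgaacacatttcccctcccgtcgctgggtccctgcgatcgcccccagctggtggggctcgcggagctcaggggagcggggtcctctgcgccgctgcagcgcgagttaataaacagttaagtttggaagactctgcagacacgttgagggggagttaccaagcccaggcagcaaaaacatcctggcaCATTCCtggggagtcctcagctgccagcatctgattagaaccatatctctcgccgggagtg
IL7R: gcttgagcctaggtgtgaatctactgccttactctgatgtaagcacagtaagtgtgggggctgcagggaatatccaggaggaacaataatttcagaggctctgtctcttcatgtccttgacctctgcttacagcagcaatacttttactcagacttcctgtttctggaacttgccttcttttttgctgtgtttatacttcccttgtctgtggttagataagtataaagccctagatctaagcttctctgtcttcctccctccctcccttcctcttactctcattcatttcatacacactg
OSMR: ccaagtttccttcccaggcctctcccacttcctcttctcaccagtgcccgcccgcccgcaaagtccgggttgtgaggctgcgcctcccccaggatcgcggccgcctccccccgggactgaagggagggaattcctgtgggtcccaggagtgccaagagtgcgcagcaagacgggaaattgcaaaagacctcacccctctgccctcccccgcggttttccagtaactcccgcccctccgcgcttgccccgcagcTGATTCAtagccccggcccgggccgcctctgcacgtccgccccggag
RAI14: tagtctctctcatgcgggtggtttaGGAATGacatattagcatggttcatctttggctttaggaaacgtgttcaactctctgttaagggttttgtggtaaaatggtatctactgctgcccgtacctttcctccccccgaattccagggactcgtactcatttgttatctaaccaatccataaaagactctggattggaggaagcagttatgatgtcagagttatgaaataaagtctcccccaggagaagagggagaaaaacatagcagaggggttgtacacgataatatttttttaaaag
SMAD3: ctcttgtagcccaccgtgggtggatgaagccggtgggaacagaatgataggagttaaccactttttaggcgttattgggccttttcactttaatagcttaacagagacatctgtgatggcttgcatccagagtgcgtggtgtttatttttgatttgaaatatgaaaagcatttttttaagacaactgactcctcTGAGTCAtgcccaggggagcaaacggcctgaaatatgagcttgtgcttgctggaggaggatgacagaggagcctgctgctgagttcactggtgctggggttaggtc

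OSMR and IL7R encode cytokine receptors, and DAB2 and SMAD3 act in TGF-beta signalling. OSMR is the oncostatin M receptor, and its window at chr5:38845762-38846061 on the plus strand held 1 AP-1 match close to the start. IL7R is the receptor chain for interleukin-7, and neither site was found in its window at chr5:35856641-35856940 on the plus strand. DAB2, an endocytic adaptor that also binds SMAD proteins, had a TEAD match on the opposite strand of its window (chr5:39424931-39425230, minus strand). SMAD3, a signal transducer of TGF-beta and activin, had an AP-1 match in the window of an internal start (chr15:67125492-67125791, plus strand). RAI14, an actin-binding ankyrin-repeat protein, also had an internal start under a peak, with a TEAD match in its window (chr5:34687309-34687608, plus strand).

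The peaks over these promoters had folds of 3.39 to 4.47 in the replicate lists. At RAI14 the fold over background was 3.87 in replicate 1 and 3.81 in replicate 2. The IL7R peak had 3.46 and 4.47, the DAB2 peak 3.76 and 3.45, the SMAD3 peak 3.61 and 3.52, and the OSMR peak 3.39 and 3.71. Replicate 1 had the higher fold at RAI14, DAB2 and SMAD3, and replicate 2 at IL7R and OSMR.

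Across the 5 arms, 28 of 2334 protein-coding promoters (1.2%) were overlapped by a shared peak. The share was 0.612% on the other arms and 0.678% over all arms. These 28 windows all lay on 5p, 5q or 15q, and no overlapped window lay on 20p or 20q. The windows belonged to 21 genes, because alternative starts of NREP, RNF145 and SLC1A3 shared a peak. The growth factor gene FGF1, outside the naming rule, was among them, with matches to both sites. An AP-1 match was present in 9 of the 28 windows (32.1%) and in 5.23% of all promoters of the 5 arms. On the other arms 27.4% of overlapped promoters held one. A TEAD match was present in 5 of 28 (17.9%), beside 12.6% of all promoters of the 5 arms and 28.3% of overlapped promoters elsewhere. A match is a run of letters and does not show that a factor was bound.

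Shared peaks numbered 2.55 per Mb over the 5 arms and 1.28 per Mb over the other arms, a ratio of 2.00. The long arm of chromosome 15 had 2.91 per Mb, 20q 2.74, 5q 2.64, 5p 2.04 and 20p 1.60. On the other 34 arms the value ran from 0.263 on 9p to 2.79 on 6p, with a median of 1.40. Thus all 5 arms lay above the median of the others, and only 15q lay above all of them. From 23 Mb on, without the stretch next to the centromere, 15q had 2.61 per Mb and fell below 6p, 20q, 5q and 17q.

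Both libraries gave a similar order. In replicate 1 the density was 8.14 peaks per Mb on 15q, 6.24 on 5q, 5.83 on 20q, 5.18 on 5p and 4.28 on 20p. In replicate 2 it was 4.37, 3.51, 3.45, 2.82 and 2.04. In each library 15q ranked first and 20p last of the 5, and the excess over the other arms was 1.60-fold in replicate 1 and 2.08-fold in replicate 2.

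**Figure D1:**
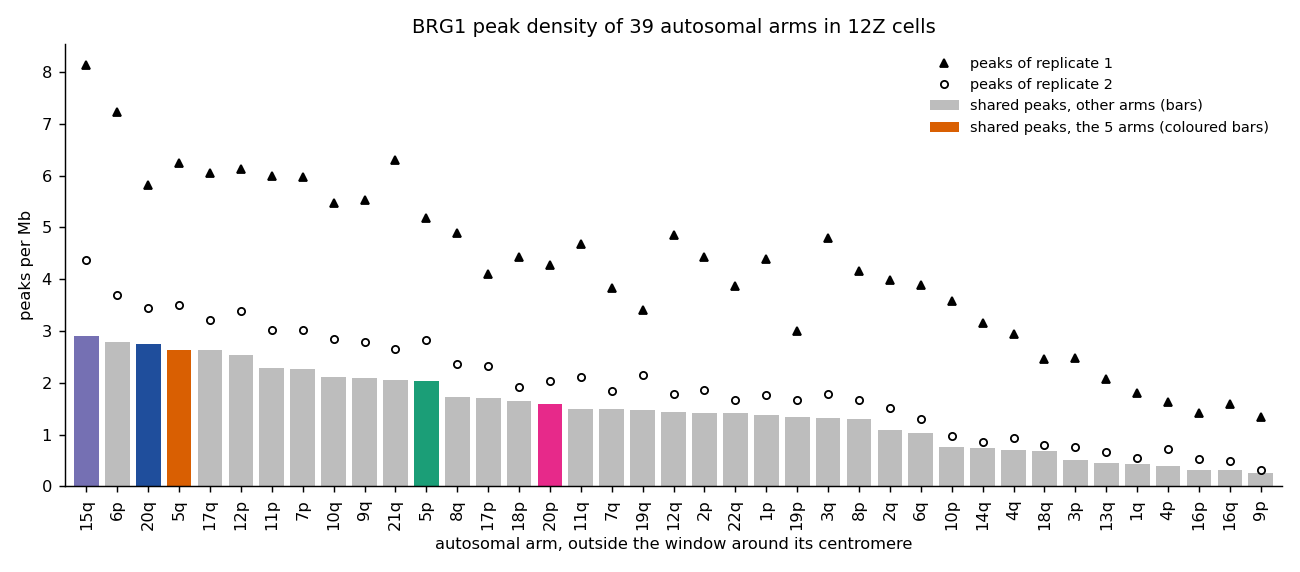
Bars give the shared BRG1 peaks per Mb on each of 39 autosomal arms, coloured for the 5 arms described, and symbols give the peaks per Mb of each replicate list. 15q leads with 2.91 shared peaks per Mb and 20p, with 1.60, lies among the grey bars of the other arms.

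The order of the arms did not follow their gene content. Protein-coding genes numbered 3.69 per Mb on 5p, 5.62 on 5q, 7.38 on 15q, 6.84 on 20p and 10.4 on 20q, or 6.39 over the 5 arms beside 7.25 elsewhere. Per 100 genes, 5p had the most shared peaks of all 39 arms (55.4), followed by 5q (47). The values were 39.4 on 15q, 26.5 on 20q and 23.4 on 20p. Across the 39 arms, genes per Mb and shared peaks per Mb had a Spearman correlation of 0.28, as a description.

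Along the arms the peaks came in groups several megabases wide. Of 59 full bins of 5 Mb on the 5 arms, 29 held at least 10 shared peaks (49.2%), beside 100 of 437 (22.9%) on the other arms. A larger share of such bins follows from choosing chromosomes with many peaks. Bins of low density lay between them, and 1 bin on 15q was empty. Below, a peak is given to its nearest protein-coding gene where one lies within 100 kb.

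On 5p, 70.7% of the shared peaks lay in 3 of its 9 bins. The bin at 35 to 40 Mb held 29, of which 7 were nearest DAB2 and 5 nearest OSMR. LIFR, the receptor for leukaemia inhibitory factor, and IL7R lay in the same bin with 2 peaks each. A bin at 5 to 10 Mb held 19, of which 8 were nearest SEMA5A, a guidance protein of the semaphorin family. The bin at 10 to 15 Mb held 17, of which 10 were nearest TRIO, an exchange factor that activates small GTPases. Between these groups were gaps without a shared peak of 5.73 and 5.21 Mb.

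Peaks were spread more evenly on 5q, where 14 of 25 bins held at least 10. Its densest bins lay at 70 to 75 Mb (30 peaks, among them 4 nearest ENC1 and 4 nearest ZNF366), 140 to 145 Mb (29) and 55 to 60 Mb (28). In the bin at 140 to 145 Mb, 10 peaks were nearest ARHGAP26, a GTPase-activating protein, and 7 nearest NR3C1, the glucocorticoid receptor. Bins at 100 to 105 and 115 to 120 Mb held 2 peaks each.

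The pattern on 15q had 2 unlike pieces. From the limit of the rule to 23 Mb, next to the centromere, 31 shared peaks gave 12.4 per Mb, with a median fold of 2.89. From 23 Mb on, 206 peaks gave 2.61 per Mb, with a median fold of 3.46. Between the pieces lay 10.8 Mb with no shared peak but 57 protein-coding genes, from position 22307044 to 33097175. Replicate lists still had peaks in the empty bin at 25 to 30 Mb, 28 in replicate 1 and 8 in replicate 2.

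Further along 15q, the bin at 35 to 40 Mb held 34 shared peaks, the most of any full bin on the 5 arms, and 25 of them lay more than 100 kb from a coding gene. Bins from 60 to 75 Mb held 26, 25 and 28. In the bin at 60 to 65 Mb, 7 peaks were nearest TLN2, a talin that couples integrins to actin, and 4 nearest ANXA2, a calcium-dependent membrane-binding protein. In the bin at 70 to 75 Mb, 11 were nearest THSD4, a secreted protein of fibrillin microfibrils.

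On 20q, 62 of the 78 peaks in full bins lay in 3 bins from 40 to 55 Mb. The nearest genes there included STK4, a Hippo pathway kinase, with 6 peaks, and PTPN1, a tyrosine phosphatase of insulin and cytokine signalling, with 4. CCN5, a matricellular protein, and CYP24A1, the enzyme that inactivates vitamin D hormone, had 3 each. The short arm of chromosome 20 had its densest bin at 10 to 15 Mb, with 13 shared peaks.

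**Figure D2:**
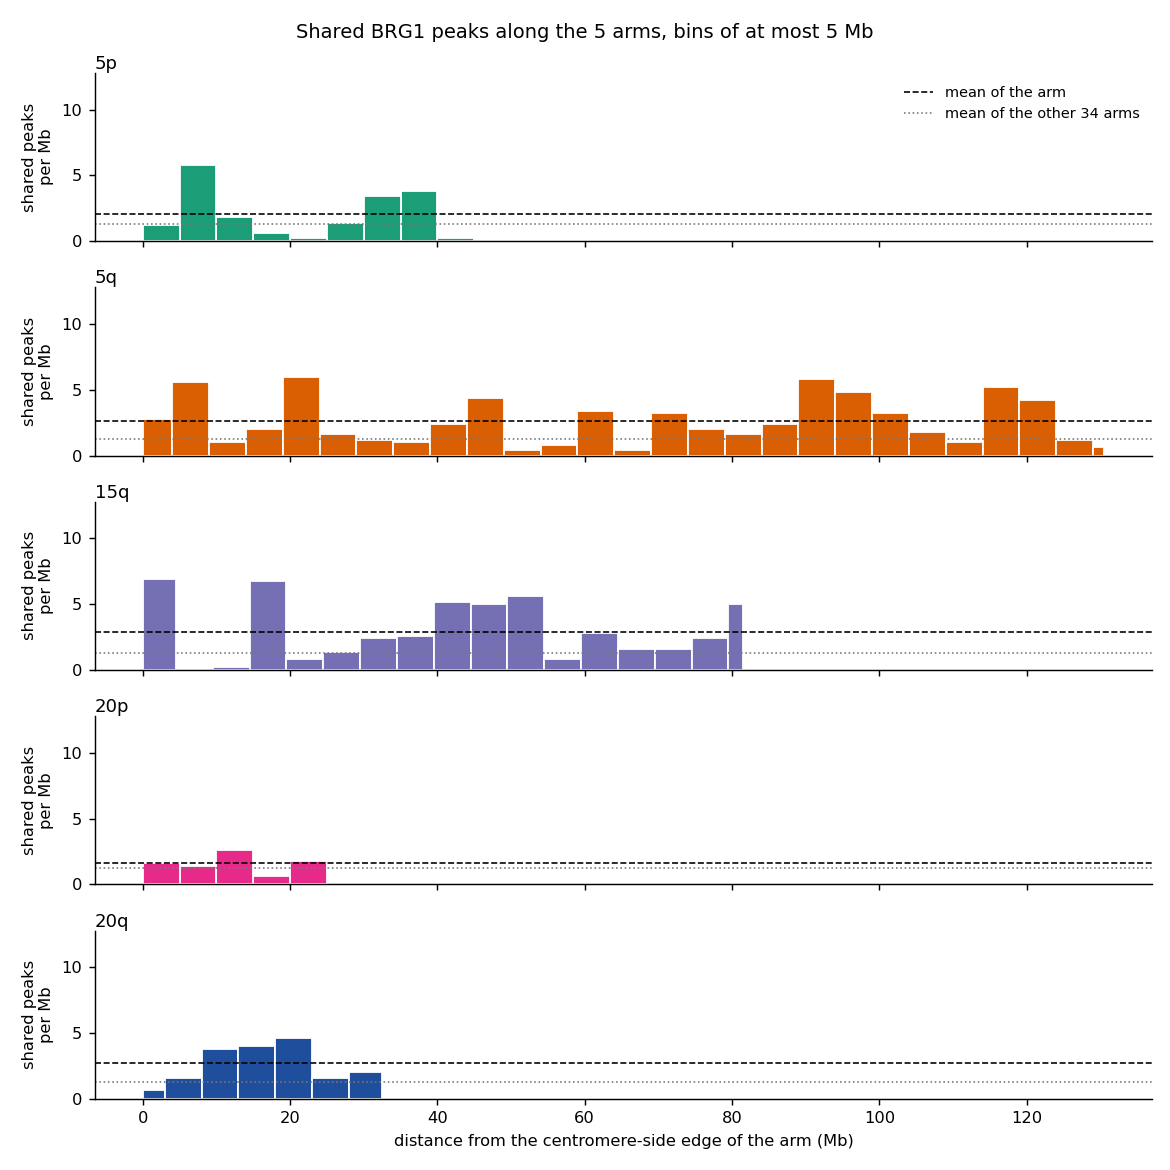
Bars give shared BRG1 peaks per Mb in bins of at most 5 Mb along each arm, measured from the edge nearest the centromere. Dashed lines give the arm's mean and dotted lines the mean of the other 34 arms, 1.28 per Mb; peaks come in groups, with a wide empty stretch near the start of 15q.

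The position limits of the rule touched few peaks, except on 15q. The last peak inside on 5p lay near NNT (fold 3.69). On 5q the peak inside lay near MOCS2 (3.20) and the one outside near EMB (3.68). At the limit on chromosome 15, 19 shared peaks lay within 1 Mb inside and 64 within 1 Mb outside, with folds of 2.58 and 2.31 at the limit. On 20p the values were 3.56 inside, near SYNDIG1, and 3.49 outside, near ENTPD6. On 20q they were 3.11 near ASXL1 and 2.79 near FOXS1.

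Named genes come from a rule that takes, for each arm, the peaks with the highest mean percentile of fold over both libraries. Intergenic peaks were outside that rule and were chosen after their values were seen. A peak at a gene end lies within 3 kb of either the start or the far end of a gene. The term does not say which of these it is, and so does not mean a promoter.

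On 5p the highest fold of all 803 peaks, 5.45, lay 204 kb from SEMA5A, at chr5:8828683-8830720. Its fold was 5.90 in replicate 1 and 5.43 in replicate 2. Inside SEMA5A itself were 7 shared peaks with folds of 3.01 to 4.13. The strongest body peaks of 5p lay in SPEF2, a protein of sperm flagella (4.31 and 4.86 in replicates 1 and 2), and in LIFR (4.46 and 4.17). At gene ends, the leading peaks lay near TAS2R1, a bitter taste receptor, DAB2, IL7R and C5orf34, with folds of 3.21 to 3.64.

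TRIO had the most peaks on 5p. Its body held 8 shared peaks with folds of 2.99 to 3.93, and 4 of these formed a cluster 19.9 kb wide. RAI14 followed SEMA5A with 3 body peaks.

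On 5q the strongest body peak lay in PDE4D, a phosphodiesterase that breaks down cyclic AMP, at chr5:59648941-59649492. Its fold was 5.15 in replicate 1 and 5.41 in replicate 2. SFXN1, a mitochondrial serine transporter, had a peak with 4.59 and 5.63. NR3C1 had a peak with 4.77 and 4.95 at chr5:143377131-143377369, the highest of 4 in its body. Averaged over both libraries, these 3 peaks lay at fold percentiles of 98.2 to 99.5 of the replicate lists.

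The leading gene-end peaks of 5q were weaker. They lay near ARHGEF28, a guanine nucleotide exchange factor, ZNF475, CSNK1G3, a casein kinase, and ATOX1, a copper chaperone. Folds of these peaks were 3.50 to 3.93.

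CAST, which encodes the calpain inhibitor calpastatin, had 12 shared peaks within the extent RefSeq gives it (813 kb), with folds of 3.28 to 3.86. TENM2, a teneurin of cell-cell contacts, had 10 and ARHGAP26 had 8. A cluster of 4 peaks lay at ERGIC1.

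On 15q the leading body peak lay in CGNL1, which encodes the junction protein paracingulin, at chr15:57485989-57486504. It had a fold of 5.61 in replicate 1 and 5.45 in replicate 2. MYZAP, a junction-associated protein in the same region, had a peak with 4.95 and 5.40, and MESD, a chaperone for LRP receptors, one with 4.64 and 4.84. At gene ends, NPTN, a cell adhesion protein of the immunoglobulin family, had a fold of 4.70 and 5.0. A second peak of CGNL1 lay at a gene end, with 4.22 and 4.36.

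SMAD3 had 8 shared peaks in its body, with folds of 2.90 to 4.35. The highest, at chr15:67178747-67179040, had 4.46 in replicate 1 and 4.03 in replicate 2. Another 5 shared peaks lay between genes within 100 kb of SMAD3, so that 13 peaks sat in or beside it, and 1 more lay farther away. THSD4 had 10 body peaks with folds of 3.13 to 4.25, and ATP8B4, a phospholipid flippase, had 5.

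The cluster with the most peaks on 15q, 6, lay in the stretch next to the centromere, more than 100 kb from its nearest coding gene, GOLGA6L6. Its median fold was 2.45, the lowest of the leading clusters.

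On 20p only 2 shared peaks lay at a gene end, both at SNAP25, which encodes a membrane fusion protein of neurons. Neither overlapped a promoter window. The stronger, at chr20:10306455-10307868, had a fold of 4.69 in replicate 1 and 5.13 in replicate 2, and the weaker had 3.43 and 3.94. RIN2, an exchange factor for Rab5, had 5 body peaks, of which the leading one had 4.72 and 4.77. PLCB4, a phospholipase C, had 3, of which 1 had 5.20 and 4.41. MACROD2, a gene of 2058 kb, had 4.

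On 20q the highest −log10 q of all 803 peaks, 14, lay 26.8 kb from STX16, a syntaxin of the Golgi. Its fold was 5.78 in replicate 1 and 5.58 in replicate 2. The strongest body peaks lay in ITCH, a ubiquitin ligase, with 4.64 and 4.83, in CCN5 with 4.77 and 4.60, and in SDC4, a syndecan of the cell surface, with 4.27 and 4.71. At gene ends the leading peaks were those of UQCC1, TGM2, CCN5 and CYP24A1. UQCC1 is an assembly factor of respiratory complex III, and TGM2 a transglutaminase that cross-links matrix proteins. These gene-end peaks had folds of 3.31 to 3.91, and none overlapped a promoter window.

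STK4 had 6 body peaks with folds of 2.82 to 3.66, and UQCC1 and PKIG, an inhibitor of protein kinase A, had 4 each. The STK4 peaks had folds of 3.30 to 4.38 in replicate 1 and 3.39 to 4.58 in replicate 2.

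Further strong intergenic peaks lay near SNX18 and EBF1 on 5q, NTRK3 and NR2F2 on 15q and BTBD3 on 20p. Near SNX18 the folds were 4.97 in replicate 1 and 5.05 in replicate 2. The peak 310 kb from EBF1, a developmental transcription factor, had 4.71 and 5.57. The one 107 kb from NTRK3, a neurotrophin receptor, had 4.77 and 5.91. The nearest gene is not shown to be the target of a peak.

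**Figure D3:**
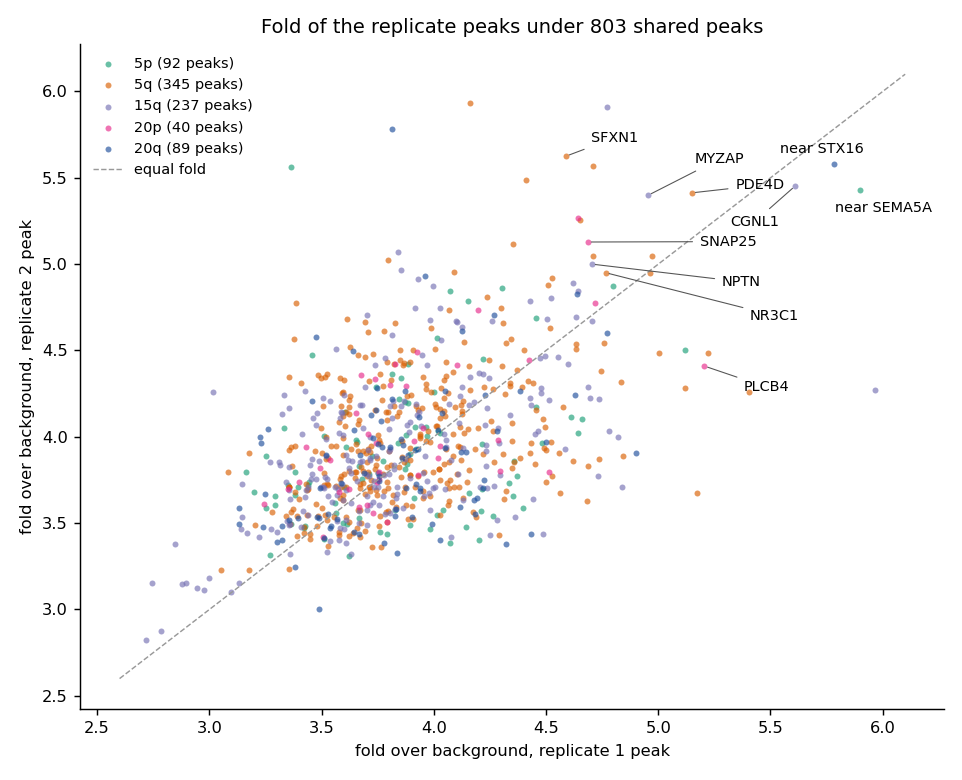
Each point is 1 of the 803 shared peaks, at the fold of the overlapping replicate 1 peak (horizontal) and replicate 2 peak (vertical), coloured by arm, with the line of equal fold dashed. Most points lie between 3 and 5 on both axes, and the labelled peaks lie to the upper right.

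Of the 2008 protein-coding genes on the 5 arms, 228 (11.4%) had a shared peak in the body or within 3 kb of it. On the other arms the share was 6.71%, and over all arms 7.21%. This count follows from the choice of peak-rich arms. By arm it was 15.1% on 5p, 12.7% on 5q, 10.3% on 15q, 6.43% on 20p and 11% on 20q. Bound genes were long, with a median of 113 kb, and genes without a peak had a median of 25.7 kb. At least 3 peaks were found in 38 genes and at least 5 in 14.

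The gene lists were chosen with earlier results of these data known, so their counts are descriptions and are set beside the 11.4% of all genes on the arms. Of the genes for matrix proteins and matrix enzymes, 10 of 32 had a shared peak. THSD4 led with 10 peaks, and 3 genes had a peak at an end, namely LAMA5, a laminin chain, TGM2 and THBS1, thrombospondin-1. ADAMTS16 and ADAMTS17, secreted proteases, had 2 each. EDIL3, a secreted integrin ligand, had 1 peak with a fold of 4.01. No listed collagen was among the 10.

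The list of adhesion and guidance receptors, which also holds ligands and the talin TLN2, had 9 of 27 members with a peak. SEMA5A had 7, TLN2 4 with folds of 3.17 to 3.51, and EFNA5, an ephrin ligand, 3. CDH4, which encodes R-cadherin, had 3, of which 2 lay at a gene end. JAG1, a Notch ligand on 20p, had 1.

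In cytokine and growth factor signalling, 11 of 30 members had a peak. IGF1R, the insulin-like growth factor receptor, had 4 with folds of 3.21 to 3.97, and LIFR, OSMR and PTPN1 had 2 each. Single peaks lay at IL16, FGF1, IL31RA, PDGFRB, IL7R, PRLR and MAP3K1. On 5p the receptor genes LIFR, OSMR and IL7R lay within 5 Mb of each other.

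For TGF-beta and BMP signalling the count was 4 of 13. SMAD3 had 8 peaks, DAB2 had 2 and the inhibitory SMAD6 had 1, as did TGFBI, a matrix protein that TGF-beta induces. Of 4 Hippo pathway genes on the arms, STK4 had 6 peaks and WWC1, the upstream regulator KIBRA, had 4 with folds of 3.08 to 3.20.

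Transcription factors had 11 of 34 members with a peak. After SMAD3 came NR3C1 with 4 and RORA, a nuclear receptor, and NFATC2 with 2 each. MYBL2, CEBPB and NR2F2 had their single peak at a gene end. The list of steroid, retinoid and prostaglandin genes had 4 of 17, namely NR3C1, CYP24A1, ALDH1A2, which makes retinoic acid, and PDE4D. As a phosphodiesterase of cyclic AMP, PDE4D is not itself a gene of these 3 classes, though it was on the list.

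Neuronal genes, listed for another cell type, had 2 of 25 with a peak, TENM2 and SNAP25. With so few genes this share of 8.0% was near that of all genes on the arms. The list's median gene length was 72.4 kb, beside 30.1 kb for all genes. The other lists had median lengths from 18.1 kb (transcription factors) to 158 kb (adhesion and guidance). The share with a peak was 32.4% in the former and 33.3% in the latter. A list's median does not give the length of its members with a peak. Single genes with a peak were long, and the part of gene length in these counts was not tested. In 7 of the 8 lists the median member had no peak, as did the median gene of the arms.

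Position relative to genes was not used to choose the arms and was tested. For this, peaks were pooled over arms. Pooled in this way, shared peaks of the 5 arms lay at gene ends less often and far from genes more often than elsewhere. The unit is the peak and not the arm, and each of the 5 arms lay within the range of the others. Within 3 kb of either end of a protein-coding gene lay 67 of 803 peaks (8.34%, 95% Wilson interval 6.62 to 10.5%), beside 356 of 2944 elsewhere (12.1%, 11 to 13.3%). The odds ratio was 0.66 (Fisher's exact test, two-sided, adjusted p = 0.00376 over 3 shares). More than 100 kb from any coding gene lay 177 peaks (22%, 19.3 to 25%), beside 483 (16.4%, 15.1 to 17.8%), with an odds ratio of 1.44 (Fisher's exact test, adjusted p = 0.000909). Inside gene bodies lay 47.8% and 48.7% (odds ratio 0.97, Fisher's exact test, adjusted p = 0.661).

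These tests count peaks as independent, which neighbouring peaks are not, so the p-values are too small. They also do not measure the spread between arms. Single arms among the other 34 had 0 to 43.2% of their peaks at gene ends (median 11.15%). Far from genes they had 0 to 35.7% (median 16.5%). Each of the 5 arms lay within both ranges. The gene-end call ended without 5q (−2.27 percentage points, exact adjusted p = 0.278) and with windows of 1 kb (−1.50 points, exact adjusted p = 0.214), and the far call ended without 15q (3.38 points, exact adjusted p = 0.0866). The gene-end call also ended when only transcription starts were counted (−2.25 points, exact adjusted p = 0.0590), a setting chosen after seeing the data. With no windows left out of the other autosomes, both differences turned, to 1.04 points at gene ends and −25.4 points far from genes.

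The 5 arms differed among themselves in this respect. At gene ends lay 16.9% of the shared peaks of 20q (interval 10.5 to 26%), 9.78% of 5p, 8.02% of 15q, 6.38% of 5q (4.25 to 9.47%) and 5.0% of 20p (1.38 to 16.5%). Far from genes lay 27.4% on 15q, 22.3% on 5q, 18.5% on 5p, 15% on 20p and 13.5% on 20q. At gene ends 20q thus lay above the other arms' 12.1% and the remaining 4 arms below it, with the interval of 5q alone ending under 11%.

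Arm composition gives a scale for these shares. Windows at gene ends made up 6.43% of the length of the 5 arms and 7.17% of the other arms. On 5p, 43.9% of the length was more than 100 kb from a coding gene and 18.5% of the peaks, on 5q 30.9% and 22.3%. On 15q the order was the other way, with 18.2% of the length and 27.4% of the peaks. The 25 far peaks in the bin at 35 to 40 Mb, with LOC124903470, CDIN1, DPH6 and RASGRP1 nearest to all but 1, were 25 of the 65 far peaks of 15q.

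**Figure D4:**
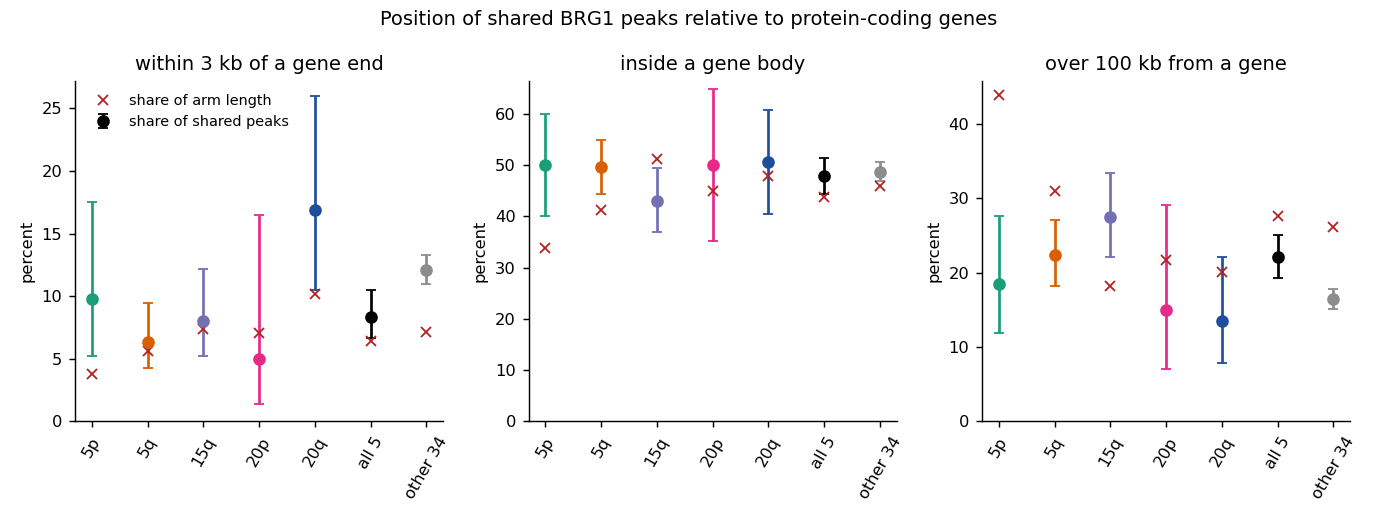
Points give the percent of shared BRG1 peaks in each position class with 95% Wilson intervals, for each arm, all 5 arms and the other 34 arms, and crosses give the percent of arm length in that class. The share at gene ends is 8.34% for all 5 arms and 12.1% for the others, and 20q alone reaches 16.9%.

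Peak strength on the arms was close to that elsewhere. Median fold was 3.43 on 5p, 3.46 on 5q, 3.41 on 15q, 3.56 on 20p and 3.40 on 20q, or 3.45 over the 5 arms beside 3.50. Median width was 1145 bp beside 967 bp, with 5p the widest of all 39 arms (1200.5 bp). In the replicate lists the width difference shrank to 27 bp in replicate 1 and 37.5 bp in replicate 2. Gene-end peaks had a lower median fold (3.28) than body peaks (3.45), intergenic peaks near genes (3.47) and far peaks (3.42).

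Most members were supported weakly in each library. The overlap list may rest on reads of both libraries, which is not stated, so its counts do not compare directly with theirs. In the overlap list 119 of 803 peaks reached a −log10 q of 5. Only 17 did so in replicate 1, 17 in replicate 2 and 4 in both. Of the 4, 1 each lay on 5p, 5q, 15q and 20q. The same counts were not made for the other arms. In the overlap list the −log10 q was alike there, with a median of 3.45 beside 3.40 on the 5 arms. The upper quartile was 4.30 beside 4.32, so low values were not particular to the 5 arms.

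The background around the peaks differed between arms. A peak's fold and p-value together imply a local background, in reads, once the fold is read as (pileup + 1) / (background + 1) and the p-value as an upper Poisson tail. Its median was 4.48 on 5p, 4.23 on 5q, 4.20 on 15q, 4.14 on 20p and 5.14 on 20q. Over the 5 arms it was 4.32, beside 3.99 on the other arms. The lowest background that peaks commonly had, taken as the 1st percentile, was 3.72, and 66.9% of member peaks lay more than 1.1 times above it, beside 41.3% elsewhere.

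Each library had its own background. In replicate 1 the median was 2.34 on 5p, 2.22 on 5q, 2.13 on 15q, 2.19 on 20p and 2.68 on 20q. In replicate 2 it was 2.00, 1.92, 1.92, 1.86 and 2.29. In both, 20q was the highest of the 5, at rank 1 of 39 arms in replicate 1 and at rank 2, after 19p, in replicate 2.

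Across the 39 arms, implied background and density had a Spearman correlation of 0.79 and a Pearson correlation of 0.53 in shared peaks. The Spearman value was 0.66 in replicate 1 and 0.82 in replicate 2. These are descriptions: the points share libraries, a threshold and a formula. Over the 39 arms density thus moved with implied background, and the part of the background in the density was not tested. Among the 5 arms the orders differed, since 20q and 5p had the highest backgrounds and 15q and 20q the highest densities. The arm 19p had a background of 5.29 and 1.33 shared peaks per Mb, and 15q as a whole had the highest density at 4.20. That value joins 2 unlike pieces of 15q. Up to 23 Mb it had 12.4 shared peaks per Mb at a background of 6.44, and from 23 Mb on 2.61 at 4.13.

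Within 5q the background changed along the arm. Medians in 10 Mb steps were 3.9 to 4.08 from 50 to 110 Mb and 4.31 to 5.03 from 120 to 180 Mb. Peaks above the floor made up 32.4% to 50% of each step in the first stretch and 61.5% to 100% in the second. The NR3C1 and ARHGAP26 bin lay in the second stretch, with a median of 4.21, and the ENC1 and ZNF366 bin in the first, with 4.10. On 20q the medians ran from 4.9 to 5.63.

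**Figure D5:**
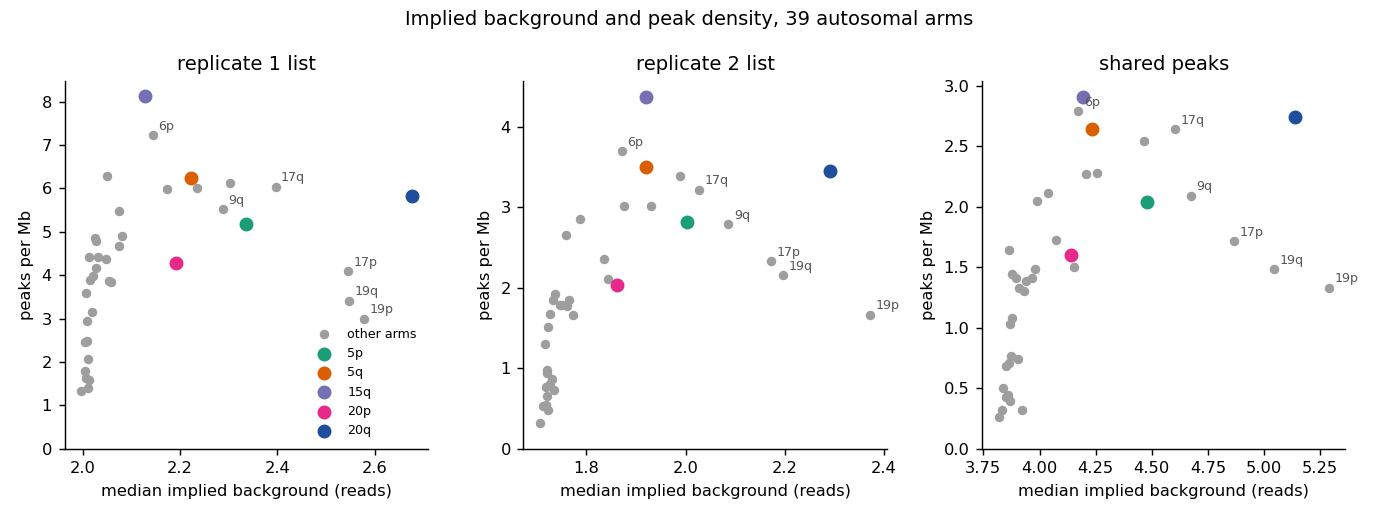
Each point is 1 of 39 autosomal arms, at the median implied background of its peaks in reads (horizontal) and its peaks per Mb (vertical), for replicate 1, replicate 2 and shared peaks. 20q lies far to the right at 5.14 in shared peaks, and 15q lies highest at 4.20.

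Agreement between the libraries was uneven by arm. Of the replicate 1 peaks on the 5 arms, 39.4% were found in replicate 2, beside 31.5% on the other arms. The chromosomes were chosen for peaks found in both libraries, so this share is partly set by the choice. The share was 48.1% on 20q, the highest of 39 arms, 41.4% on 5q, 38.6% on 5p, 35.5% on 20p and 35.3% on 15q. Of the replicate 2 peaks, 73.1% were found in replicate 1, beside 76.2%. By arm this was 83.0% on 20q, 75.6% on 5p, 74.5% on 20p, 74.2% on 5q and 67.4% on 15q. Thus 20q led and 15q was last in both directions.

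Joined within 10 kb, the 803 peaks formed 650 clusters, of which 531 held a single peak (81.7%, beside 87.7% on the other arms, where peaks were sparser). Counting each cluster once left a density ratio of 1.86. Clusters of 3 or more numbered 25, and their peaks were 84 of the 803. Clusters outside the stretch next to the 15q centromere included 4 peaks at UQCC1 and, between genes, 5 with ASB7 as the nearest gene and 3 with SMAD3.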

How the data were processed

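BRG1 ChIP-seq of wild-type 12Z cells was read from 3 lists of broad peaks, 1 per replicate and 1 overlap list of the series. The submitters' processing notes name Bowtie2, MACS2, bedtools, Picard, SAMtools, Trim Galore and cutadapt, with the build GRCh38.p12. Their settings, and whether reads were pooled for the overlap list, are not given there. The authors deposited, for each peak, a fold over background, a p-value and a q-value as −log10, and a whole-number score that was not used.

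Computed here, with Python 3.11.15, pandas 2.3.3, numpy 2.4.6, scipy 1.17.1 and matplotlib 3.10.9, were densities per arm, distances to genes and implied backgrounds. Windows around centromeres were set by hand. Gene positions and promoters come from RefSeq tables of GRCh38.p14, and starts were given for 21 of the 22 autosomes. All listed genes were found in the table. Shares carry 95% Wilson intervals and were tested with a two-sided Fisher's exact test and Benjamini-Hochberg adjustment over 3 shares and a threshold of 0.05. The test was run on simulated independent peaks, and the background formula on values made with that same formula. Neither run could show that the test or the formula holds for these peaks. Whether the formula gives the local background of the deposited peaks, for which no read counts are given, was not tested.

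Per arm, named genes are those at the 4 gene-end and 3 body peaks of highest mean fold percentile, the 3 genes with most body peaks, the gene at the largest cluster, and up to 4 members of each list; further members are named outside that rule. Arms, lists and tests were chosen with earlier results of these data known. Alternatives were each replicate list alone, a −log10 q of at least 2, clusters counted once, other windows and limits, and each arm left out. A peak at 1 of the position limits is not reported here.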

Additional observations from a re-analysis of the deposited data

How the results depend on the processing

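Differences are in percentage points, 5 arms minus other arms, with adjusted p from Fisher's exact test. At gene ends the value was −3.75. It kept its direction in 13 of 14 alternatives, and the call ended without 5q (−2.27, exact p = 0.278), with windows of 1 kb (−1.50, exact p = 0.214) and with transcription starts only (−2.25, exact p = 0.0590; chosen after seeing the data). Far from genes it was 5.64 and ended without 15q (3.38, exact p = 0.0866). Inside gene bodies it was −0.89 and not called; it passed the threshold without replicate 2 (−3.23, exact p = 0.0135) and turned with clusters counted once (0.58), 15q from 23 Mb (0.77) and without 15q (1.11), none of them called. With no windows left out, which adds peaks near centromeres to the other autosomes, the values turned to 1.04 at gene ends, 18.1 in bodies and −25.4 far from genes, the density ratio fell from 2.00 to 1.32, the fold difference turned from −0.05 to 0.10 and the width difference rose from 178 to 232.5 bp. Without replicate 1 or without replicate 2 the gene-end value was −3.41 to −1.98, bodies −3.23 to −2.85, far 5.34 to 6.32, the density ratio 1.60 to 2.08, and the width difference 27 to 37.5 bp. With 50% of both peaks required to overlap, 17.6% of replicate 1 peaks and 32% of replicate 2 peaks on the 5 arms were found in the other library, against 39.4% and 73.1%. Apart from the added peaks, the cause was not tested. No paired analysis was possible because the lists hold 1 group of ChIP libraries. Depth is unknown, so no interval includes read sampling.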
